A study of Mus musculus with 12 samples.

Results

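Adrb3, Adrb1 and Adra2a encode the adrenergic receptors most studied in fat, and they were taken by name from the 16670 genes of the deposited table, in which all 3 were present. They were measured by RNA sequencing in female C57BL/6 mice, in inguinal fat, which lies under the skin. The fat of 2 mice was pooled, digested with collagenase and spun, which gave a floating layer of mature adipocytes and a pellet of stromal vascular cells, which holds progenitors, vessel cells and immune cells. The 12 libraries fall into 4 groups of 3, by fraction and by genotype label, Kdm5c+/- (heterozygous) or Kdm5c+/+ (wild type), and replicate numbers name pools of mice, not single animals. The labels give no age, no treatment and no account of how Kdm5c, an X-linked gene for a histone demethylase, was altered. Levels are in CPM, reads scaled to 1000000 per library, and are given as mean ± SD.

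Adrenergic receptors bind noradrenaline from sympathetic nerves and adrenaline from the blood. The beta receptors couple to the stimulatory G protein, which raises cyclic AMP, activates protein kinase A and releases fatty acids from the lipid droplet. The alpha-2 receptors couple to inhibitory G proteins and lower cyclic AMP. In rodents the beta-3 receptor is found mainly in fat and is the main lipolytic beta receptor of white and brown adipocytes.

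The libraries held 21836878 to 29434125 reads over the genes listed, and 3 reads came to 0.102 to 0.137 CPM. Kdm5c itself had 158 to 190.3 CPM in mature adipocyte libraries labelled Kdm5c+/-, against 174 to 180.0 CPM in those labelled wild type. It had 175 to 194 CPM in stromal vascular libraries labelled Kdm5c+/-, against 180.1 to 188 CPM in wild type. The groups overlapped, so the level of Kdm5c over the whole gene does not bear out the genotype labels, and each direction between genotypes below follows the labels alone. Of 29 markers of progenitor, endothelial, pericyte and macrophage cells, the median level in mature adipocytes was 1.24% to 3.61% of that in the stromal vascular library of the same pool, and adipocyte markers were plentiful in the floating layer (Adipoq, the adipocyte hormone adiponectin, at 3993 to 4602 CPM).

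In GRCm38, the mouse genome build of the files, Adrb1 (ENSMUSG00000035283.5 in GENCODE release M21) lies on the plus strand of chromosome 19 from 56722199 to 56733113. Adra2a (ENSMUSG00000033717.6) lies on the plus strand of the same chromosome, from 54044151 to 54048982. Adrb3 (ENSMUSG00000031489.15) lies on the minus strand of chromosome 8 from 27225776 to 27250616, with 5 annotated transcripts, of which 3 are coding. The noncoding gene Gm45470 overlaps Adrb3 on the other strand. The libraries were made strand-specific, but whether strand was used in counting is not given in the sources used here, so a share of antisense reads in the Adrb3 value cannot be told apart.

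The promoter table from RefSeq (GRCm38.p6) held 2 of the 3 genes. Their windows, from 250 bases before to 50 after the RefSeq start, are shown because these 2 genes of chromosome 19 differed between the fractions in opposite directions. The RefSeq starts are not the GENCODE gene starts given above. The Adrb1 window ends before the GENCODE start at 56722199, and the Adra2a window lies inside the GENCODE gene, which starts at 54044151. Capitals mark the motifs searched on both strands: the E-box CACGTG, the TATA box TATAAA and the cyclic AMP response core TGACG. The motifs did not overlap.
Adrb1, chr19:56721867-56722166, plus strand: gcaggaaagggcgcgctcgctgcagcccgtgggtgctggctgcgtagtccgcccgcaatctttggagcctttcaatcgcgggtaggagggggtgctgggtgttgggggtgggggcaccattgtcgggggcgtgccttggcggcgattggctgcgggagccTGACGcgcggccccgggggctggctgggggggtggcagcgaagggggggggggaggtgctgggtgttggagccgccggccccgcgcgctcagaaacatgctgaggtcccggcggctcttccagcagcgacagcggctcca
Adra2a, chr19:54045009-54045308, plus strand: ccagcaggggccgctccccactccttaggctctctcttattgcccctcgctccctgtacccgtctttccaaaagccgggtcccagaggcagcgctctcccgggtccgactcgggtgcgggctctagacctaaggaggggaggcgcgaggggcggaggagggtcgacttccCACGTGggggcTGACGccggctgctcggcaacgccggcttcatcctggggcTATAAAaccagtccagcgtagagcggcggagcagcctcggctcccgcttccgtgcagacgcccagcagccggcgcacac
The TGACG core was present in both windows, at base 161 of that of Adrb1 and base 182 of that of Adra2a, and 20.8% of the 32851 windows of the table held it. Only the Adra2a window of the pair held an E-box, at base 171 (7.15% of all windows), and a TATA box, at base 222 (13.6% of all windows). Each window held 28 CG dinucleotides, against a median of 7, and 14.2% of windows held as many or more. These matches are descriptions of the sequence, not of binding.

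Adrb3 was an abundant adipocyte transcript and the other members were scarce. In mature adipocytes its level was 1001, 996 and 882 CPM in libraries labelled Kdm5c+/-, against 576, 532 and 510.1 CPM in wild type. In the stromal vascular fraction it was 28.6, 31.6 and 8.67 CPM in libraries labelled Kdm5c+/-, against 14.8, 3.996 and 6.61 CPM in wild type. Every mature adipocyte library stood above every stromal vascular library, and within mature adipocytes every library labelled Kdm5c+/- stood above every wild type library. Among all genes tested, 74.6% did not overlap between the fractions. In mature adipocytes 22.0% did not overlap between the labels, 9.44% with Kdm5c+/- above wild type. Over both genotypes Adrb3 averaged 749 ± 235 CPM in mature adipocytes against 15.7 ± 11.7 CPM in the stromal vascular ones (n = 6 each), a ratio of means of 47.7.

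Adrb1, the beta-1 receptor, which also raises the heart rate, was a low transcript in both fractions. It had 3.96, 2.80 and 3.53 CPM in mature adipocyte libraries labelled Kdm5c+/-, against 4.34, 3.87 and 2.74 CPM in wild type. In the stromal vascular fraction it had 2.37, 2.20 and 1.07 CPM in libraries labelled Kdm5c+/-, against 2.33, 1.53 and 1.49 CPM in wild type. The genotypes overlapped in both fractions, while the lowest mature adipocyte library stood above the highest stromal vascular one. These levels rest on 70 to 114 reads per mature adipocyte library and 26 to 65 per stromal vascular library, and the mean in mature adipocytes was 3.54 ± 0.65 CPM, against 1.83 ± 0.54 CPM in stromal vascular cells (n = 6 each).

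Adra2a, the alpha-2A receptor that restrains lipolysis, ran the other way. It had 1.10, 1.84 and 1.45 CPM in mature adipocyte libraries labelled Kdm5c+/-, against 0.909, 1.02 and 1.20 CPM in wild type. In the stromal vascular fraction it had 7.67, 10.8 and 5.75 CPM in libraries labelled Kdm5c+/-, against 8.10, 14.8 and 15.4 CPM in wild type. The genotypes overlapped in both fractions, and every stromal vascular library stood above every mature adipocyte library. The means were 1.25 ± 0.34 CPM in mature adipocytes, on 22 to 46 reads per library, and 10.4 ± 3.97 CPM in stromal vascular cells, on 140 to 423 reads (n = 6 each).

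**Figure D1:**
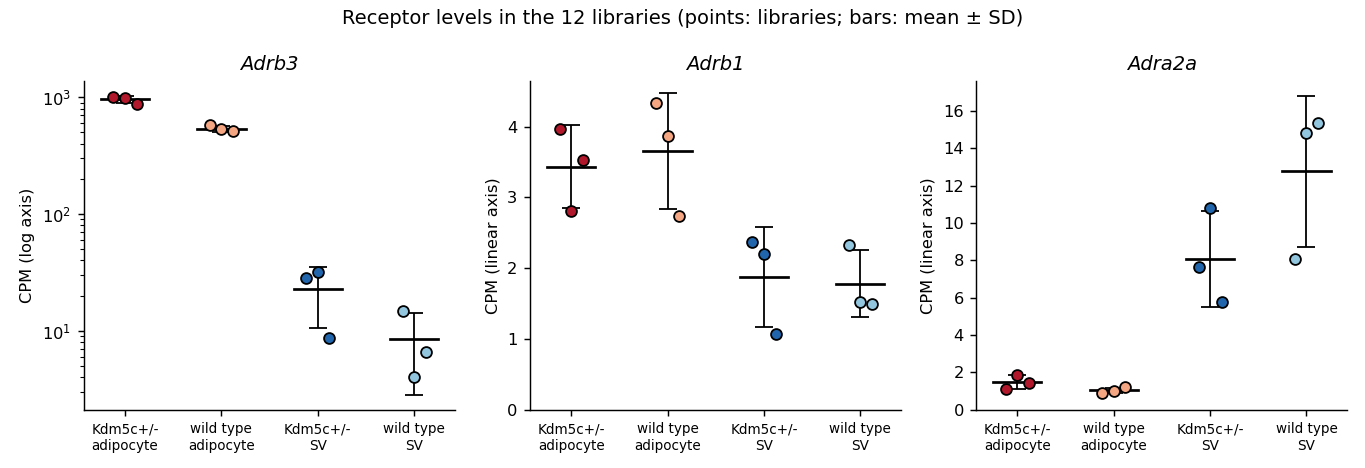
Level in CPM of Adrb3 (log axis), Adrb1 and Adra2a (linear axes) in each of the 12 libraries, as points, with the mean and SD of each group of 3 as bars. Adrb3 and Adrb1 are higher in the mature adipocyte groups and Adra2a is higher in the stromal vascular groups. Of these 3 genes the genotypes stand apart only for Adrb3 in mature adipocytes, at 882 to 1001 CPM in Kdm5c+/- and 510.1 to 576 CPM in wild type. In mature adipocytes 22.0% of all genes tested stand apart (9.44% higher in Kdm5c+/-).

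Between the fractions, Adrb3 and Adrb1 were higher and Adra2a was lower in mature adipocytes. All 3 members passed in limma on log2(CPM + 1), where 87.8% of the 14193 genes tested passed, 28.7% higher and 59.1% lower in mature adipocytes, so a pass says little by itself and the sizes carry the comparison. In a bulk library fewer cells of a type and less RNA per cell cannot be told apart. The Adrb3 difference was 5.75 ± 0.32 on the log2 scale (SE, adjusted p = 7.76e-09), the highest of the 14193 genes on that scale. Its rank depended on the method. It stayed at 1 with a pseudocount of 0.25 (5.86) and with median-of-ratios scaling (6.13), and was 2 with quantile normalization (6.13). It was 21 in edgeR (6.17) and 22 in DESeq2 (6.09), and the cause was not tested.

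The Adrb1 difference was 0.69 ± 0.15 in limma (SE, adjusted p = 0.000983), and its size depended on the pseudocount and on the scaling. The ratio of mean CPM was 1.93, and a pseudocount of 0.25 gave a log2 difference of 0.89. Median-of-ratios scaling gave 0.97 and quantile normalization 1.76, and edgeR and DESeq2, on the reads and with scalings of their own, gave 1.43 and 1.35. The Adra2a difference was -2.28 ± 0.17 in limma (SE, adjusted p = 1.05e-07) and -2.56 in edgeR, and it shrank to -1.14 with quantile normalization. In all 3 members the fractions did not overlap, as in 74.6% of all genes, and the exact two-sided permutation test of each gave p = 0.00216, the smallest that the 924 splits allow. These splits ignored that both fractions came from the same pools, so this p treats paired libraries as independent and is too small. The limma fits above also took the libraries as independent. With the pool as a block in limma, the adjusted p was 2.79e-07 for Adrb3, 0.00101 for Adrb1 and 6.56e-07 for Adra2a. Most genes were lower in mature adipocytes on the CPM scale, with a median of all genes at -0.45, which median-of-ratios scaling moved to -0.088, quantile normalization to 0.087 and edgeR to -0.0075. All 3 members kept their direction under each of these scalings.

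Adrb3 in the stromal vascular libraries moved with adipocyte genes. In the pools labelled Kdm5c+/-, its stromal vascular level was 2.85%, 3.17% and 0.983% of that in the mature adipocytes of the same pool, against 2.58%, 0.751% and 1.30% in the wild type pools. The same percentage for Adipoq was 3.58%, 3.73% and 1.27% in pools labelled Kdm5c+/-, against 2.51%, 1.06% and 1.49% in wild type pools. The library lowest in Adrb3 in each genotype was also the lowest in Adipoq. All 10 mature adipocyte markers were present in the stromal vascular libraries, none at 0, with sums of 4422 to 8015 CPM in those labelled Kdm5c+/- and 4759 to 5637 CPM in wild type. Pool by pool, the median marker was at 1.32% to 4.07% of its mature adipocyte level. The highest marker was at 30.7% to 51.0%, so the sums do not give a share of adipocyte RNA. The part of adipocyte RNA in the stromal vascular level of Adrb3 was not tested. Adrb1 in the stromal vascular libraries was at 30.3% to 78.5% of its mature adipocyte level, pool by pool.

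Adra2a in mature adipocytes kept part of its stromal vascular level. It was at 14.4%, 17.0% and 25.2% of its stromal vascular level in pools labelled Kdm5c+/-, against 11.2%, 6.88% and 7.79% in wild type pools. The median of the 29 stromal vascular markers was at 1.92%, 1.24% and 1.81% in pools labelled Kdm5c+/-, against 2.26%, 3.61% and 2.08% in wild type pools. The percentage of Adra2a was above that median in each of the 6 pools, and 1 to 4 of the 29 markers were above Adra2a in a pool. Among those markers, Gsn had 13131 to 26171 CPM in mature adipocytes and 11395 to 15120 CPM in the stromal vascular fraction. With the CPM of Adrb1 and Adrb3 added together and divided by that of Adra2a in the same library, mature adipocytes had ratios of 542 to 913 in libraries labelled Kdm5c+/- and 428 to 638 in wild type. Stromal vascular ratios were 1.69 to 4.03 in libraries labelled Kdm5c+/- and 0.373 to 2.12 in wild type. These ratios are not corrected for gene length, serve only to compare libraries and have no test.

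**Figure D2:**
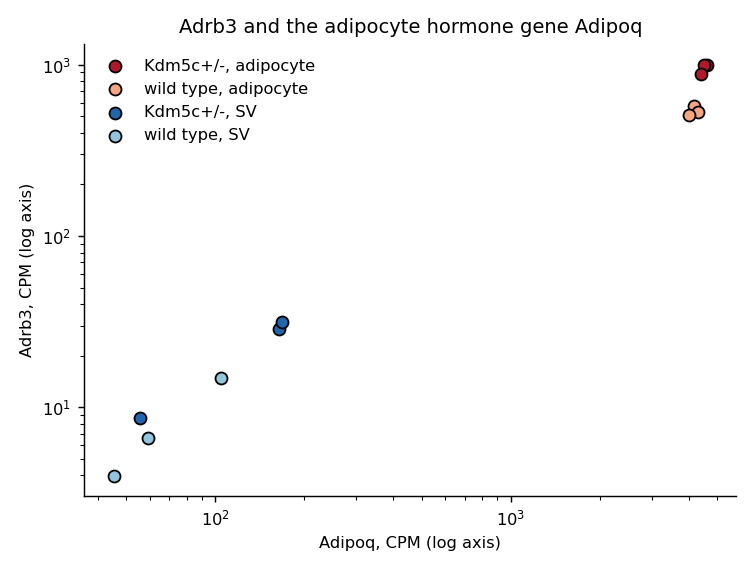
Level of Adrb3 against that of Adipoq in each library, both in CPM on log axes, with a colour for each group of 3. In mature adipocytes both genes stand apart by genotype label, as do 22.0% of all genes tested (9.44% higher in Kdm5c+/-). Adipoq is at 4411 to 4602 CPM in Kdm5c+/- and 3993 to 4300 CPM in wild type, with a ratio of means of 1.09. The ratio of means of Adrb3 is 1.78. In the stromal vascular libraries both genes range together.

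The place of the 3 members in the receptor family was read on levels per kilobase of exon, the only scale on which different genes are compared. In mature adipocytes Adrb3 led with 222 ± 69.6 CPM per kilobase (n = 6) and made up 93.6% of the sum over the 8 adrenergic receptor genes reported here. Adra1a and Adra1d, alpha-1 receptors that signal through phospholipase C, stood at 7.92 and 5.64 CPM per kilobase. Adrb1 had 1.05 ± 0.19, and Adra2a 0.259 ± 0.071, ahead of Adra1b (0.202), Adra2b (0.0276) and Adra2c (0.00741). Adrb3 stood clear of Adra1a in every library, and Adrb1 stood clear of Adra1d above it and of Adra2a below it. The ranges of Adra2a and Adra1b overlapped.

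In stromal vascular libraries Adrb3 stood at 4.65 ± 3.47 CPM per kilobase, level with Adra1d at 4.67, and Adra2a at 2.16 ± 0.82. Adra2c had 1.10, Adra1b 1.04 and Adra2b 0.684 CPM per kilobase, and Adrb1 had 0.541 ± 0.160, above Adra1a at 0.382. In this order of the 8 genes each range overlapped the next, so that no place between neighbours was set beyond the spread between libraries.

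**Figure D3:**
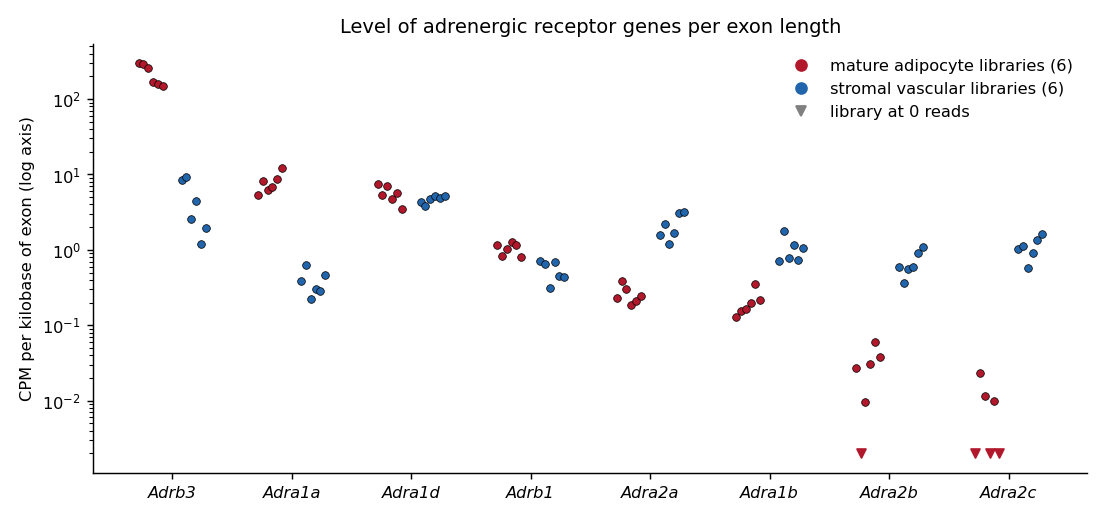
Level per kilobase of exon (log axis) of 8 adrenergic receptor genes, with a point for each mature adipocyte library (6) and each stromal vascular one (6) and a triangle for a library at 0 reads. Adrb3 stands above the other receptors plotted in mature adipocytes, at 151 to 296 CPM per kilobase, and spreads from 1.18 to 9.35 in the stromal vascular fraction, over the range of Adra1d.

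Of 5 other receptors, 1 was higher in mature adipocytes in limma, 3 were lower and 1 did not pass. Adra1a shared the direction of Adrb3, with 69.2 ± 21.2 CPM in mature adipocytes and 3.34 ± 1.30 CPM in stromal vascular cells (n = 6 each), a log2 difference of 4.02 ± 0.21 (adjusted p = 3.86e-09). Adra2b (-1.71) and Adra2c (-2.18) shared the direction of Adra2a. At their low levels the log2(CPM + 1) scale compressed these values, since the mean CPM was 24.7 times as high in stromal vascular cells for Adra2b and 148 times for Adra2c, against 8.32 times for Adra2a. The reads gave -4.27 and -6.65 in edgeR, and Adra2c had at most 2 reads in a mature adipocyte library, under the 3 reads taken as the floor. Adra1b was lower as well (-1.39), but with quantile normalization it was at -0.12 and did not pass. Adra1d, at 0.22 ± 0.12 (adjusted p = 0.0988), did not pass in limma and passed in edgeR (0.73, where 86.0% of genes passed) and DESeq2 (0.65, where 86.6% did).

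The genotype comparison in mature adipocytes turned on Adrb3, which averaged 960 ± 67.1 CPM in libraries labelled Kdm5c+/-, against 539 ± 33.5 CPM in wild type (n = 3 per label), a ratio of means of 1.78. Its log2 difference was 0.83 ± 0.11 (SE, 95% interval 0.57 to 1.09) in limma. By p (0.000125) it ranked 2 of the 11913 genes tested, but the adjusted p was 0.273, so Adrb3 did not pass. No gene passed in limma, for a background of 0%, while 1737 genes had an unadjusted p under 0.05. In edgeR, too, no gene passed (1755 at an unadjusted p under 0.05), and Adrb3 had a log2 difference of 0.87 and an adjusted p of 0.274. DESeq2 on the same reads called 250 genes, 2.10% of those tested, and 1 of the 3 members, Adrb3, at 0.87 ± 0.12 (SE, adjusted p = 1.25e-09). Adrb3 was also the 1 member of 3 whose groups did not overlap, against 22.0% of all genes (9.44% in its direction), and its exact permutation p was 0.1, the smallest that 3 against 3 libraries allow.

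Other measures moved with the genotype label in the same libraries. The 10 mature adipocyte markers summed to 41584 to 50138 CPM in mature adipocyte libraries labelled Kdm5c+/-, against 36957 to 37120 CPM in wild type. They did not move as a group: 7 had a positive log2 difference and none passed (limma, median 0.19, range -0.77 to 0.58). The ratio of means was 1.46 for Cfd and 1.30 for Fabp4, against 0.998 for Plin1, 0.90 for Slc2a4 and 0.62 for Lep. The 7 endothelial markers summed to 98.1 to 178 CPM in libraries labelled Kdm5c+/-, against 225 to 283 CPM in wild type, and none was at 0. The 7 pericyte and smooth muscle markers summed to 65.2 to 212 CPM in libraries labelled Kdm5c+/-, against 199 to 456 CPM in wild type. The 8 progenitor and fibroblast markers summed to 13501 to 17067 CPM in libraries labelled Kdm5c+/-, against 18186 to 27392 CPM in wild type, and Gsn made up 92.8% to 97.9% of the sum in a library. The 7 macrophage markers summed to 32.6 to 36.04 CPM in libraries labelled Kdm5c+/-, against 34.3 to 99.6 CPM in wild type. The sums of the adipocyte, endothelial and progenitor markers did not overlap between the labels, and those of the pericyte and macrophage markers did. Of all genes taken singly, 22.0% did not overlap in these libraries, and the progenitor sum is close to that of Gsn alone. The median log2 differences in limma were -0.93 over the pericyte and smooth muscle markers and -0.79 over the endothelial markers. They were -0.55 over the progenitor markers and -0.52 over the macrophage markers. Every marker of these lists had a negative value and none passed. An unadjusted limma p under 0.05 was found for 6 of 7 pericyte, 5 of 7 endothelial, 2 of 8 progenitor and 1 of 7 macrophage markers. Over all genes it was found for 1737 of 11913. The part of these cells in the Adrb3 difference was not tested.

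Adrb3 was also set against each of the 10 mature adipocyte markers in the same library. The groups did not overlap for 7 of them and overlapped for Cidec, Lep and Cfd. Adrb3 alone already stood apart between the labels, and these 7 markers had ratios of means of only 0.90 (Slc2a4) to 1.30 (Fabp4). Their lack of overlap was therefore largely set by Adrb3 itself and is not 7 separate results. Adrb3 was at 20.0% to 22.1% of the CPM of Adipoq in mature adipocytes labelled Kdm5c+/-, against 12.4% to 13.8% in wild type. It was at 29.8% to 37.1% of Plin1, the lipid droplet coat protein, in libraries labelled Kdm5c+/-, against 18.4% to 20.9% in wild type. It was at 20.6% to 30.0% of Cidec in libraries labelled Kdm5c+/-, against 18.7% to 25.7% in wild type, where the groups overlapped. These percentages are of CPM, not corrected for length, and have no test.

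Neither Adrb1 nor Adra2a passed between the genotype labels in mature adipocytes. Adrb1 averaged 3.43 ± 0.59 CPM in libraries labelled Kdm5c+/-, against 3.65 ± 0.82 CPM in wild type, a log2 difference of -0.063 with a 95% interval of -0.50 to 0.37 (limma, adjusted p = 0.891). Adra2a averaged 1.46 ± 0.37 CPM in libraries labelled Kdm5c+/-, against 1.04 ± 0.15 CPM in wild type, a log2 difference of 0.26 with a 95% interval of -0.14 to 0.66 (limma, adjusted p = 0.475). The added 1 compressed this value, which was 0.53 in edgeR and DESeq2, with a ratio of mean CPM of 1.40. Without Kdm5c+/- replicate 2 it was 0.15. The levels rest on 22 to 46 reads per library. Of the other receptors, Adra1d had 0.48 ± 0.20 (limma, adjusted p = 0.338) and Adra1a -0.46 ± 0.24 (limma, adjusted p = 0.393), and neither passed.

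In the stromal vascular fraction, no member passed between the genotype labels, where limma and edgeR each called 1 gene of 13792 (0.00725%), 1043 genes had an unadjusted p under 0.05 in limma, and DESeq2 called 53 genes (0.384%). Adrb3 averaged 22.9 ± 12.4 CPM in libraries labelled Kdm5c+/-, against 8.49 ± 5.66 CPM in wild type (n = 3 per label). The log2 difference was 1.32 ± 0.59 (95% interval -0.11 to 2.74, limma, adjusted p = 0.654). The groups of all 3 members overlapped, while 13.5% of all genes had groups that did not. Relative to Adipoq in the same library, Adrb3 was at 15.5% to 18.7% of its CPM in libraries labelled Kdm5c+/- and 8.80% to 14.2% in wild type.

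Adra2a had the opposite sign in the stromal vascular fraction, with 8.08 ± 2.55 CPM in libraries labelled Kdm5c+/-, against 12.8 ± 4.05 CPM in wild type (n = 3 per label). Its log2 difference was -0.59 ± 0.29 (95% interval -1.27 to 0.096, limma, adjusted p = 0.661). Adrb1 had 1.88 ± 0.71 CPM in libraries labelled Kdm5c+/-, against 1.78 ± 0.47 CPM in wild type, a log2 difference of 0.031 (95% interval -0.52 to 0.58, limma, adjusted p = 0.986). The endothelial markers summed to 5168 to 6729 CPM in stromal vascular libraries labelled Kdm5c+/-, against 6609 to 7208 CPM in wild type. The pericyte and smooth muscle markers summed to 3369 to 3838 CPM in those labelled Kdm5c+/- and 3809 to 4782 CPM in wild type. The macrophage markers summed to 1888 to 2728 CPM in those labelled Kdm5c+/- and 1902 to 1995 CPM in wild type. The part of such cells in the Adra2a values was not tested.

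Whether the genotype difference was unlike in the fractions was tested as an interaction over all 12 libraries, and no member passed. In limma, as in edgeR, no gene of 14193 passed (1267 in limma and 1427 in edgeR at an unadjusted p under 0.05), and DESeq2 called 65 genes (0.458%), no member among them. The interaction of Adra2a was 0.85 ± 0.35 (SE, adjusted p = 0.530 in limma, rank 861 of 14193 by p), the sign of a difference more positive in mature adipocytes than in stromal vascular cells. Adrb3 had -0.49 ± 0.64 (adjusted p = 0.859) and Adrb1 -0.094 ± 0.303 (adjusted p = 0.951), both in limma. Without 1 stromal vascular library the Adrb3 value ran from -1.05 (without Kdm5c+/- replicate 3) to -0.11 (without wild type replicate 2). Of the other receptors, Adra1d had 0.69 ± 0.23 (adjusted p = 0.509).

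**Figure D4:**
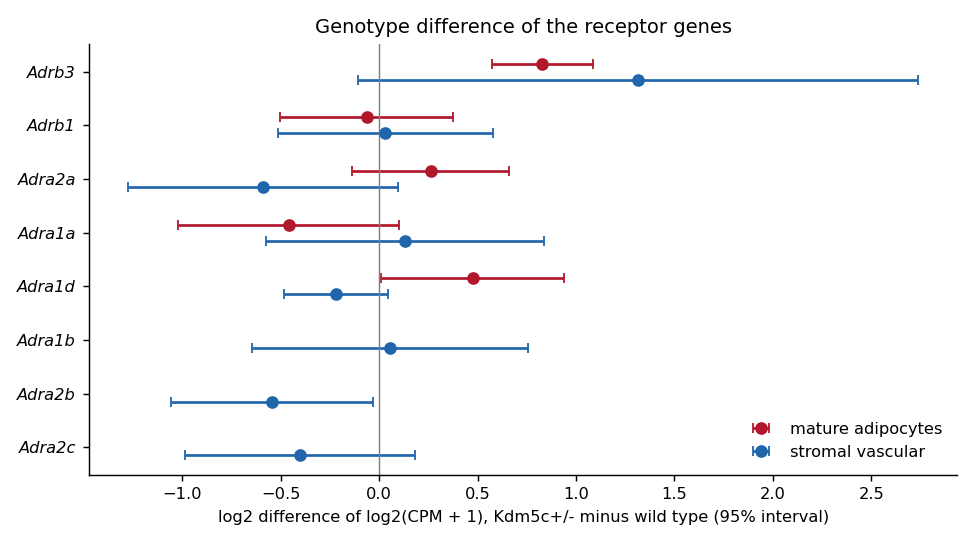
Log2 difference of log2(CPM + 1), Kdm5c+/- minus wild type, for 8 adrenergic receptor genes in mature adipocytes (upper point of a pair) and the stromal vascular fraction, with unadjusted 95% intervals from limma; genes under the filter in mature adipocytes have 1 point. The interval of Adrb3 in mature adipocytes, 0.57 to 1.09, lies apart from 0, while in the stromal vascular fraction, at -0.11 to 2.74, it spans 0. Those of Adrb1 and Adra2a span 0 in both fractions. The intervals of Adra1d in mature adipocytes (0.012 to 0.94) and of Adra2b in the stromal vascular fraction (-1.05 to -0.030) also lie apart from 0.

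The genes most like each member were those with the smallest root mean square distance between centred log2(CPM + 1) values. Over the 12 libraries, the 5 nearest to Adrb3 of 14190 genes were Cfd, the secreted protease adipsin (0.27), Retn, the hormone resistin (0.31), Adipoq (0.34), Cidec, which enlarges lipid droplets (0.35), and Plin1 (0.42). The median distance of all genes from Adrb3 was 3.20. Nearest to Adra2a was another alpha-2 receptor, Adra2c (0.17), then the calcium pump gene Atp2b2 (0.23), the sodium channel gene Scn3a (0.23), the calcium channel subunit gene Cacnb2 (0.24) and the magnesium channel gene Trpm6 (0.25), for a median of all genes of 1.06. These 5 genes went down to between 0 and 0.034 CPM in their lowest library, against 0.909 CPM for Adra2a, and the log2(CPM + 1) scale flattens such differences between low levels. Nearest to Adrb1, which varied little, were Pstk (0.16), 3010026O09Rik (0.17), Pars2 (0.17), E030030I06Rik (0.17) and Zfp174 (0.18), for a median of 0.70. Within the 6 mature adipocyte libraries the nearest were Zfp783, Ybx2 and Car11 for Adrb3 (0.11 to 0.13), Gemin2, 4930511E03Rik and Gstm7 for Adrb1 (0.057 to 0.070), and Ccnk, Ybey and Cep95 for Adra2a (0.062 to 0.063).

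The genes that carry the receptor signal differed between the fractions in both directions, beside the 87.8% of all genes that did. That share, 28.7% higher and 59.1% lower in mature adipocytes, is the background for each list that follows. Of 20 G protein and adenylyl cyclase genes tested, 2 were higher and 14 lower in mature adipocytes (limma, median log2 difference -0.80, against -0.45 over all genes). The inhibitory subunit gene Gnai1, through which alpha-2 receptors act, was among the higher ones, with 476 ± 41.9 CPM in mature adipocytes and 26.8 ± 9.23 CPM in the stromal vascular fraction (4.16 ± 0.15). The cyclase genes Adcy4 (-4.94) and Adcy7 (-5.10) and the beta subunit gene Gnb4 (-4.33) were lower. Of 9 genes of receptor desensitisation, most of which phosphorylate or bind active receptors, none was higher and 7 were lower (median -0.88). Among them were Adrbk1, the beta-adrenergic receptor kinase also known as Grk2, with 70.5 ± 2.24 CPM in mature adipocytes and 156.8 ± 13.9 CPM in the stromal vascular fraction (-1.14), and Arrb2, beta-arrestin 2 (-1.84). Grk6 (-0.94) and Grk4 (-1.16) were lower as well, though Grk4 turned to 0.13 with quantile normalization.

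Of 15 cyclic nucleotide phosphodiesterase genes, which break down cyclic AMP or cyclic GMP, 4 were higher and 10 lower in mature adipocytes (limma, median -1.23). The lower ones included Pde3a (-5.19), with 1.10 ± 0.42 CPM in mature adipocytes and 74.6 ± 5.35 CPM in the stromal vascular fraction, Pde10a (-3.75), Pde4c (-3.56) and Pde8b (-3.05). Of 13 genes of protein kinase A, its inhibitors and its anchoring proteins, 3 were higher and 10 lower (median -1.06). The regulatory subunit gene Prkar2b was higher, with 979 ± 143 CPM in mature adipocytes and 52.9 ± 18.1 CPM in the stromal vascular fraction (4.24 ± 0.16), as was the catalytic subunit gene Prkaca (1.81). Prkar1b (-4.10) and the inhibitor gene Pkig (-1.66) were lower.

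Of 10 lipolysis effector genes, 8 were higher and 2 lower in mature adipocytes (limma, median 3.02), beside 28.7% and 59.1% of all genes. Pnpla2, adipose triglyceride lipase, had 4384 ± 1021 CPM in mature adipocytes and 316 ± 95.2 CPM in the stromal vascular fraction (3.81 ± 0.16). Lipe, hormone-sensitive lipase (3.67), G0s2, an inhibitor of Pnpla2 (3.75), and Abhd5, its activator (2.37), shared the direction of Adrb3. Of 11 genes known to be induced by cyclic AMP, 5 were higher and 4 lower (median 0.066). Ppargc1a, a coactivator of mitochondrial genes (2.78), and Fgf21 (1.17) were higher, and Sik1 (-2.80) and Nr4a3 (-1.07) were lower, the last turning to 0.19 with quantile normalization.

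Of 16 other receptors that start or restrain lipolysis, 10 were higher and 6 lower in mature adipocytes (limma, median 1.84). Mc2r, the corticotropin receptor, had 70.9 ± 8.61 CPM in mature adipocytes and 1.82 ± 0.78 CPM in the stromal vascular fraction (4.71 ± 0.14). The natriuretic peptide receptor gene Npr1 (-4.91), the adenosine receptor gene Adora2a (-3.85) and Gipr (-3.46) were lower. Of 5 genes that handle catecholamines, 2 were higher and 2 lower (median -0.16). Slc22a3, a transporter that takes up noradrenaline, had 106 ± 18.5 CPM in mature adipocytes and 6.18 ± 1.41 CPM in the stromal vascular fraction (3.90 ± 0.13). The degrading enzyme gene Maob (2.67) was higher too, and Slc18a2, the vesicle transporter (-2.42), and Slc6a2, the noradrenaline transporter of nerve endings (-1.97), were lower. All 4 adipocyte transcription factor genes examined were higher, Cebpa (4.10), Klf15 (3.23), Pparg (1.55) and Cebpb (1.50).

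**Figure D5:**
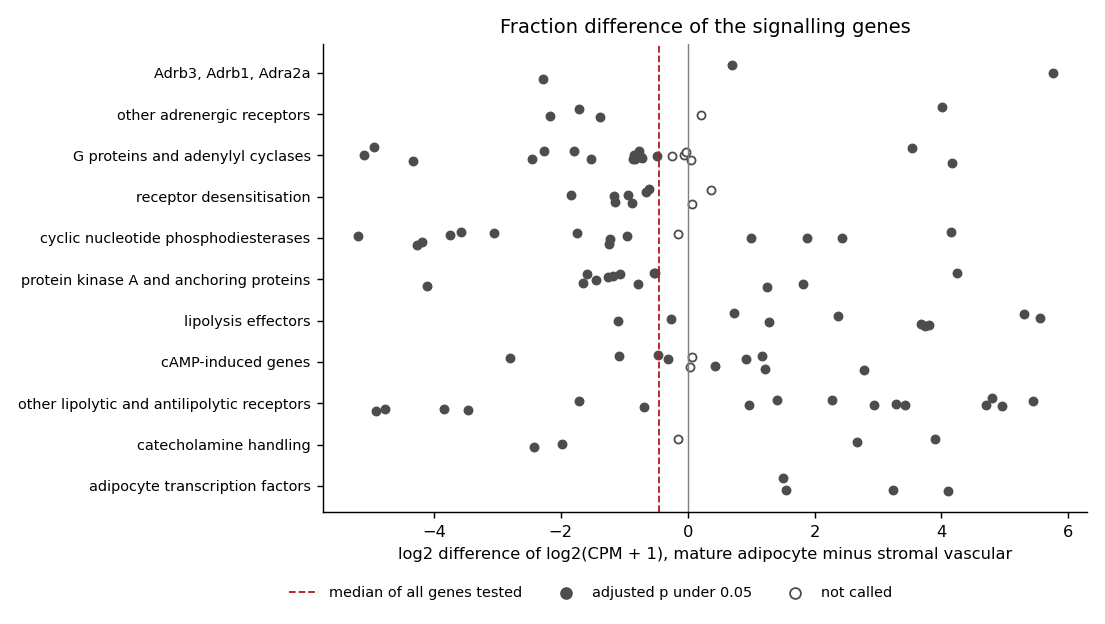
Log2 difference of log2(CPM + 1), mature adipocyte minus stromal vascular, of each gene tested in the receptor lists, with filled points for genes past an adjusted p of 0.05 in limma and a dashed line at the median of all genes, -0.45. Adrb3 lies at 5.75, the rightmost point, and most genes of G proteins, desensitisation, phosphodiesterases and protein kinase A lie left of 0.

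Between the genotype labels, no gene of these lists passed in limma in either fraction, and the values that follow are those of the 2 genes with the smallest p in each list. In mature adipocytes 12 of these 18 genes had a negative log2 difference and 6 a positive one, with adjusted p of 0.273 to 0.494. Akap2, an anchoring protein of protein kinase A, had 177 ± 29.2 CPM in libraries labelled Kdm5c+/-, against 258 ± 13.9 CPM in wild type (n = 3 per label, log2 difference -0.56, limma, adjusted p = 0.273). Hcar1, the lactate receptor that restrains lipolysis, had 221 ± 50.5 CPM in libraries labelled Kdm5c+/-, against 138 ± 3.94 CPM in wild type (0.65, adjusted p = 0.274 in limma). Of the lipolysis effectors, Hilpda, an inhibitor of Pnpla2, had 4.53 ± 0.30 CPM in libraries labelled Kdm5c+/-, against 7.15 ± 1.62 CPM in wild type (-0.54, adjusted p = 0.289 in limma). Cidec had 3867 ± 835 CPM in libraries labelled Kdm5c+/-, against 2561 ± 304 CPM in wild type (0.58, adjusted p = 0.296 in limma). Cebpa had 1285 ± 73.8 CPM in libraries labelled Kdm5c+/-, against 1109 ± 33.7 CPM in wild type (0.21, adjusted p = 0.388 in limma). Of the 18 genes, Hcar1, Cidec, Cebpa and Akap2 passed in DESeq2, with log2 differences of 0.72, 0.64, 0.25 and -0.51 and adjusted p of 0.0205, 0.0395, 0.0323 and 0.0190. Over all genes DESeq2 called 250 of 11913 (2.10%). The 18 genes were picked by small limma p in the same libraries, so these passes are not independent of that choice.

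The other genes with negative limma values in mature adipocytes were Gnb4 (-0.80) and Gnai3 (-0.23) of the G proteins, the receptor kinase Grk6 (-0.22), the phosphodiesterases Pde7b (-0.34) and Pde3a (-0.48), the kinase subunit gene Prkar2a (-0.26), Npr1 (-0.51), Slc22a3 (-0.37), Maoa (-0.31), another degrading enzyme, and Ppargc1a (-0.40). Klf15 (0.24) and the transcription factor gene Irf4 (0.96) had positive values. Rgs2, which shortens G protein signals, had 74.3 ± 54.1 CPM in mature adipocytes labelled Kdm5c+/- and 21.8 ± 6.09 CPM in wild type, with a log2 difference of 1.53 that did not pass (limma, adjusted p = 0.293). The lipolysis effectors had a median log2 difference of 0.23 over 10 genes between the labels in mature adipocytes, beside -0.035 over all genes. The G protein and cyclase genes had -0.082 over 18 genes, the phosphodiesterases -0.055 over 11 and the protein kinase A list -0.031 over 11. The genes induced by cyclic AMP had -0.029 over 11 genes, and Ppargc1a had 21.1 ± 5.06 CPM in libraries labelled Kdm5c+/-, against 27.9 ± 3.28 CPM in wild type (limma, adjusted p = 0.342). In the stromal vascular fraction the lipolysis effectors had a median of 0.25 over 10 genes, led by Cidec, which had 129 ± 67.8 CPM in libraries labelled Kdm5c+/-, against 55.0 ± 18.9 CPM in wild type (limma, adjusted p = 0.644). Sik1, a kinase induced by cyclic AMP, had 144 ± 17.4 CPM in stromal vascular libraries labelled Kdm5c+/-, against 105 ± 15.2 CPM in wild type (limma, adjusted p = 0.617), and Nr4a1 had 143 ± 18.8 CPM in libraries labelled Kdm5c+/-, against 185 ± 29.2 CPM in wild type (limma, adjusted p = 0.634). The other values of smallest p in that fraction were positive for Lipe (0.47), Pde3b (0.77), Prkar2b (0.56), Adora1 (0.50), Mc2r (0.45), Maob (0.18), Cebpa (0.26) and Klf15 (0.28). They were negative for Gnai2 (-0.25), Gnb4 (-0.43), Grk5 (-0.18), Arrb1 (-0.14), Pde4a (-0.20), Pkig (-0.16) and Maoa (-0.12). In the interaction, too, no gene of the lists passed in limma.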

How the data were processed

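RNA of 12 libraries of inguinal fat fractions was measured, and each library came from fat pooled from 2 mice, so p-values measure the spread between pools. The authors deposited CPM, reads per gene scaled to 1000000 per library. Per the labels' protocols, libraries were strand-specific (NuGEN Universal plus mRNA-Seq). The build GRCm38 and the tools STAR 2.7.2a and edgeR 3.26.8 are named per the submitters' processing notes. For the counting tool and annotation, a name is not given in the sources used here. All deposited CPM values (100%) were whole multiples of what 1 read is worth in their library (tolerance 0.05), which gave back the whole reads, 21836878 to 29434125 in a library. Floors of 3 reads cover counting error only.

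The log2(CPM + 1) values were tested two-sided with limma 3.58.1 (R 4.3.3; eBayes with trend and robust). Genes entered with 3 or more of the fitted libraries at or above 1 CPM, with Benjamini-Hochberg adjustment over all of them and a threshold of 0.05. Genotypes were compared within each fraction (6 libraries), and fractions and the interaction over 12 libraries. edgeR 4.0.16 (quasi-likelihood) and DESeq2 1.42.0 on the recovered reads were alternatives, besides those of the closing section. The limma fits, but not those of edgeR or DESeq2, were tried on simulated reads with the same spread setting for every gene. Single genes also had exact permutation tests. Lengths are merged exons of GENCODE M21, in which 15866 symbols (95.2%) were found. Grk2, Grk3 and Adgre1 were found as Adrbk1, Adrbk2 and Emr1; the symbols of 23 genes had become dates and are not named. Figures were drawn with matplotlib 3.10.9 and tables read with pandas 2.3.3 and numpy 2.4.6 (Python 3.11.15).

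The members, lists and markers were chosen with earlier results of these data known. Some genes of the receptor and catecholamine lists are not reported here and enter no count. All members and the other adrenergic receptors kept are named, then from each list up to 4 genes that passed with the smallest p, or, with none past the threshold, the 2 of smallest p (for the interaction, lists are given only as a count), and the 5 (12 libraries) or 3 (mature adipocytes) genes nearest to each member. Same-numbered fractions of a genotype are taken as pairs from the data, since their deviations from the group means, across genes, correlated at 0.17 to 0.28 in all 6 pools; the pool as a block changed no call of a member.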

Additional observations from a re-analysis of the deposited data

How the results depend on the processing

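The alternatives were a pseudocount of 0.25, no filter or a filter at a mean of 5 CPM, scaling by median of ratios or by quantiles, edgeR, DESeq2, a replicate block, a fit of all 12 libraries for the genotype comparisons, and leaving out each library. Under all that could be run, Adrb3, Adrb1 and Adra2a kept direction and call between fractions. Leaving out a library gave log2 differences of 5.47 to 5.98 for Adrb3, 0.58 to 0.77 for Adrb1 and -2.42 to -2.18 for Adra2a. The filter at 5 CPM gave no value for Adrb1, nor for Adra2a in mature adipocytes.

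Adrb3 between genotype labels in mature adipocytes stayed at 0.79 to 0.89 under every alternative and passed only in DESeq2 (0.87); the cause was not tested. With a library left out, its adjusted p ran from 0.0576 without Kdm5c+/- replicate 3 to 0.612 without Kdm5c+/- replicate 1. The signs of Adrb1 near 0 were not stable: it had 0.048 in mature adipocytes and 0.025 in the interaction with quantile normalization, and leaving out a library gave -0.21 to 0.044 in mature adipocytes, -0.099 to 0.25 in stromal vascular cells and -0.32 to 0.036 in the interaction.

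Genes called in mature adipocytes were 250 in DESeq2, 1 with all 12 libraries and 0 to 3 without a library (3 without Kdm5c+/- replicate 3). In stromal vascular cells they were 53 in DESeq2, 4 with all 12 libraries, 0 with a replicate block and 0 in each of the 6 fits without a library. For the interaction they were 65 in DESeq2 and 0 to 7 without a library (7 without the mature adipocyte library Kdm5c+/- replicate 3). Split by direction, the fraction calls were 4072 higher and 8394 lower in mature adipocytes, 5721 and 6550 with median-of-ratios scaling, 6612 and 5776 with quantile normalization, 6063 and 6145 in edgeR, and 5768 and 6530 in DESeq2.

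Kdm5c+/- and wild type libraries of a number share only that number: their deviations correlated at -0.28 to 0.34. With the replicate block Adrb3 in mature adipocytes had an adjusted p of 0.340, and with the pool as a block Adra2a in the interaction had 0.369, so neither passed, and the pairing changed no call of a member.

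Between genotype labels in stromal vascular cells, leaving out a library turned the sign of Adra1a (-0.16 to 0.42), Adra1b (-0.28 to 0.25), Klf15 (-0.089 to 0.61) and Maob (-0.023 to 0.33). Between fractions, quantile normalization turned Grk4 (0.13) and Nr4a3 (0.19). The interaction of Adra2b was -0.94 in edgeR and -0.9999 in DESeq2, against 0.38 in limma, and rests on at most 7 reads per mature adipocyte library. These causes were not tested. The depth limits Adrb1 and Adra2a, at 22 to 114 reads per mature adipocyte library.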
